A study of Mus musculus with 4 samples.

Results

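The genes described here are 35 lysosomal genes of the 32285 genes in the deposited matrices. These members were chosen by symbol and by known role, with earlier results of these data known. They comprise 14 hydrolases, 3 soluble activators or lipid carriers, 8 membrane proteins, the transcription factor Tfeb and 9 subunits or accessory proteins of the vacuolar proton pump. All 35 were found in every matrix, and none was used to gate cells.

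CD45+ cells, that is leukocytes and microglia, had been sorted live from thalamus and hippocampus (HPC) of C57B6/J mice with cortical brain injury, and their single-cell transcripts were counted (scRNA-seq) with the 10x Genomics 3' kit. Per the methods of the study, the injury was an aspiration of the cortex on 1 side, tissue came from the injured hemisphere, and cells of 4 mice were pooled in equal numbers for each region. Per the labels, a library of Cell Multiplexing Oligos (DNA tags that mark the cells of a sample) accompanied each region. Each region had 4 matrices, called tagged sets here (n = 4 and 4) and each taken as 1 mouse, which neither the methods nor the labels state, and the regions were run as separate 10x libraries, so that region and library cannot be told apart. All sets came from injured mice, so no comparison was with uninjured tissue, and age, sex and day after injury were not in the labels.

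After filtering, 24939 of 29190 barcodes were kept, with 9789875 to 26636526 UMIs (transcripts counted once by a molecular tag) per set. Marker genes gated 18977 cells as microglia (10637 in the HPC, 8340 in the thalamus), and all 13 microglia markers were detected in both regions, with summed levels of 23637 to 24769 CPM (UMIs scaled to a common total per set) in the HPC sets and 23344 to 24401 in the thalamus sets. HPC set 1 stood apart from the other HPC sets, since it kept 80.5% of its barcodes against 92.9% to 95.6%, and results that rest on it are given without it as well. The thalamus sets kept 80.45% to 87.9%, so that the share removed by the filters moved with region, and its part in the results was not tested.

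Lysosomes are acidic organelles in which hydrolases break down proteins, glycans and lipids delivered by endocytosis, phagocytosis and autophagy. Their acidity is made by the vacuolar proton pump (V-ATPase), which consists of a cytosolic ATP-splitting V1 sector and a proton-conducting V0 sector in the membrane, and membrane proteins such as Lamp1 and Lamp2 line the organelle. Many lysosomal genes carry CLEAR elements, palindromic motifs around the letters CACGTG, near their start sites, which are bound by Tfeb and related factors, and microglia, the phagocytes of the brain, are rich in lysosomes.

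The promoters shown next are those of members that later head the results or are standard lysosomal markers and that hold the CLEAR core. In the RefSeq promoter table of GRCm38.p6 (250 bases before to 50 after each start), 30 of the 35 members had an entry. CACGTG, searched on both strands, was found in 10 of the 30 (33.3%), and in 8.09% of the promoters of 27025 genes. The longer forms, which contain CACGTG, were rarer. TCACGTGA was in 5 members (16.7%) and in 1.12% of all genes, and GTCACGTG in 7 (23.3%) and in 2.55%. The 10 members were Gla, Glb1, Lamp1, Lgmn, Gaa, Naglu, Mcoln1, Atp6v1a, Atp6v0d1 and Atp6v0e. Lgmn held the core in the window at chr12:102439043-102439342. It was absent from the Lgmn window at chr12:102439679-102439978, which spans the annotated start of the gene. Each stretch below runs 5′ to 3′ on the strand of its gene and ends before the start site, with the motif in capitals. CACGTGAC is GTCACGTG read on the other strand.
Gla (chrX:134601184-134601242, minus strand): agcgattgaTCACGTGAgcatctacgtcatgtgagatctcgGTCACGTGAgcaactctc
Glb1 (chr9:114401020-114401045, plus strand): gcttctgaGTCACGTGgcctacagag
Lamp1 (chr8:13159090-13159160, plus strand): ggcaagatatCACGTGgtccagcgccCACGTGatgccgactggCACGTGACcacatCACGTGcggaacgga
Atp6v1a (chr16:44139375-44139400, minus strand): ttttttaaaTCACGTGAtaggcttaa
Lamp1 held 4 copies of the core, at positions -61, -45, -28 and -15 from the start site, and Gla held 2, at -227 and -194. No core was found in the windows of Cd68, Gusb, Hexa, Grn, Npc2 or Atp6v0c. Such a match is a description of letters, not of binding.

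To ask whether lysosomal genes differed between thalamic and HPC microglia, UMI counts were summed per set over all gated microglia and compared with edgeR. A gene was called at a Benjamini-Hochberg adjusted p-value under 0.05 over all genes tested. Of the 35 members, 8 were higher and 1 was lower in the thalamus. The higher members were the hydrolases Gla, Gusb and Glb1, the cholesterol carrier Npc2, the membrane glycoprotein Cd68, and the pump subunits Atp6v0d2, Atp6v0c and Atp6v0e. The lower member was Npc1, the membrane protein that takes cholesterol from Npc2. Over all 12974 genes tested, 8.99% were called higher and 4.85% lower. The median log2 fold change was 0.23 over the members and -0.01 over all genes, and 30 of 35 members were above 0. Values of the regions did not overlap for 11 members, 9 of them above in the thalamus (8.47% of all genes) and 2 below (12.8%).

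Levels are given below as CPM, the UMIs of a gene scaled to a common total of UMIs of the gated cells of a set. They are not scaled to gene length, since the 3' kit counts transcript ends, and are compared only within a gene. Fold changes come from the edgeR fit, which rescales sets by TMM factors.

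Among the hydrolases, Gla (alpha-galactosidase A, which removes terminal galactose from glycolipids; ENSMUSG00000031266, GRCm38 chromosome X, 134588149 to 134601125) had 12.1, 6.31, 4.77 and 8.75 CPM in HPC sets 1 to 4 and 31.0, 17.8, 14.6 and 21.3 in thalamus sets 1 to 4. The lowest thalamus set lay above the highest HPC set, and Gla had a log2 fold change of 1.45 (edgeR adjusted p = 0.0166, SE 0.32), a 2.73-fold difference, on 1339 UMIs in all. Gusb (beta-glucuronidase, which acts on glycosaminoglycans; ENSMUSG00000025534, chromosome 5, 129989011 to 130003049) had 169.2, 162.2, 161.5 and 158.1 in the HPC and 263.1, 213.7, 219.0 and 221.8 in the thalamus. The groups did not overlap, and thalamus set 1 was well above the other thalamus sets. Its log2 fold change was 0.56 (edgeR adjusted p = 0.00366, SE 0.09). Glb1 (beta-galactosidase; ENSMUSG00000045594, chromosome 9, 114401076 to 114474898) had 60.8, 59.1, 62.1 and 59.7 in the HPC and 82.6, 68.4, 75.7 and 74.6 in the thalamus. The HPC sets were close together and all below the thalamus sets, with a log2 fold change of 0.39 (edgeR adjusted p = 0.00859, SE 0.07). Gusb and Glb1 were called in all 15 alternatives run for all microglia, and Gla in 14, the exception being the fit without HPC set 2 (adjusted p = 0.0587, range 2.95e-06 to 0.0587).

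The other 11 hydrolases were not called. Hexa, the alpha subunit of beta-hexosaminidase, had a log2 fold change of 0.36 (edgeR adjusted p = 0.0529), and Lipa, the lysosomal acid lipase, also of 0.36 (edgeR adjusted p = 0.0657). Lgmn, an asparaginyl endopeptidase, was at 0.02 and the acid sphingomyelinase Smpd1 at -0.07.

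Of the soluble non-enzymatic proteins, Npc2 (ENSMUSG00000021242, chromosome 12, 84754562 to 84773152) had 679.2, 512.9, 477.6 and 568.2 CPM in the HPC and 902.8, 719.1, 676.2 and 798.3 in the thalamus. The lowest thalamus set lay just below HPC set 1, so the groups overlapped. The log2 fold change was 0.53 (edgeR adjusted p = 0.0375, SE 0.14), and the call was lost in 8 of 15 alternatives (adjusted p up to 0.111), among them leaving out any set but HPC set 1 or thalamus set 3. Grn, the precursor of the granulins, had 829.9, 585.5, 573.8 and 636.7 in the HPC and 1173, 730.4, 787.5 and 914.9 in the thalamus. HPC set 1 was above 2 of the thalamus sets, and the log2 fold change of 0.52 was not called (edgeR adjusted p = 0.0872).

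Among the membrane proteins, Cd68 (a macrosialin of phagocytes related to the Lamp proteins; ENSMUSG00000018774, chromosome 11, 69664213 to 69666153) had 507.6, 438.2, 436.6 and 441.4 CPM in the HPC and 648.0, 537.3, 566.7 and 597.2 in the thalamus. All thalamus sets were above all HPC sets, and HPC set 1 was the highest of its group. The log2 fold change was 0.43 (edgeR adjusted p = 0.0177, SE 0.10), and it was called in 12 of 15 alternatives, the losses being without HPC set 2, HPC set 4 or thalamus set 4. Npc1 (ENSMUSG00000024413) had 97.0, 104.0, 105.4 and 105.5 in the HPC and 85.3, 93.1, 91.2 and 87.9 in the thalamus. Every thalamus set was below every HPC set, with a log2 fold change of -0.14 (edgeR adjusted p = 0.0494, SE 0.04), a call kept in 5 of 15 alternatives and lost without any single set but HPC set 1. Lamp1, a standard marker of lysosomal membranes (ENSMUSG00000031447, chromosome 8, 13159161 to 13175338), had 971.3, 666.4, 626.5 and 682.7 in the HPC and 1049, 844.5, 759.1 and 857.2 in the thalamus. HPC set 1 lay within the thalamic range and the other HPC sets below it. The log2 fold change of 0.32 (SE 0.17) was not called (edgeR adjusted p = 0.24), while without HPC set 1 it was 0.51 and was called (edgeR adjusted p = 0.0109).

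Tfeb itself (ENSMUSG00000023990, chromosome 17, 47737030 to 47792419) had 67.9, 73.3, 70.3 and 64.1 CPM in the HPC and 70.2, 65.3, 65.7 and 69.7 in the thalamus. The regions overlapped throughout, and the log2 fold change was 0.04 (edgeR adjusted p = 0.661, SE 0.06), with a value of -0.024 when TMM factors were left out.

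The proton pump held the largest fold change of the members. Atp6v0d2 (the d2 form of a V0 subunit, known from osteoclasts and macrophages; ENSMUSG00000028238, chromosome 4, 19876841 to 19922605) had 1.17, 0.837, 0.998 and 0.905 CPM in the HPC and 5.68, 3.72, 5.16 and 5.49 in the thalamus. It was scarce, with 260 UMIs over all sets, but the groups were far apart. Its log2 fold change was 2.40 (edgeR adjusted p = 0.000361, SE 0.22), a 5.29-fold difference, and it was called in all 15 alternatives, the one with no low-count filter among them. Its widely expressed counterpart Atp6v0d1 (ENSMUSG00000013160, chromosome 8, 105524465 to 105566047) had 100.3, 95.3, 84.9 and 98.6 in the HPC and 111.1, 95.9, 105.9 and 103.2 in the thalamus. These ranges overlapped, and the log2 fold change of 0.20 (SE 0.08) was not called (edgeR adjusted p = 0.124).

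Atp6v0c, which forms the proteolipid ring of V0 (ENSMUSG00000024121, chromosome 17, 24163866 to 24169702), had 596.3, 485.6, 471.3 and 495.9 in the HPC and 760.1, 644.9, 616.3 and 666.3 in the thalamus. Atp6v0e, a small V0 subunit (ENSMUSG00000015575, chromosome 17, 26663231 to 26699647), had 193.3, 161.7, 172.1 and 172.7 in the HPC and 260.6, 224.4, 208.3 and 228.5 in the thalamus. For both, every thalamus set was above every HPC set. Their log2 fold changes were 0.46 (edgeR adjusted p = 0.0274, SE 0.11) and 0.46 (edgeR adjusted p = 0.0146, SE 0.10), and the calls held in 10 and 14 of 15 alternatives. Both were lost without HPC set 2, and that of Atp6v0c also without HPC set 3, HPC set 4, thalamus set 1 or thalamus set 4. None of the V1 subunits Atp6v1a, Atp6v1b2 and Atp6v1h nor the accessory proteins Atp6ap1 and Atp6ap2 was called. Calls were not confined to V0, however. Among pump genes that are not members, the V1 subunits Atp6v1d, Atp6v1e1, Atp6v1f and Atp6v1g1 were called higher and the V0 subunit Atp6v0a2 lower.

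**Figure D1:**
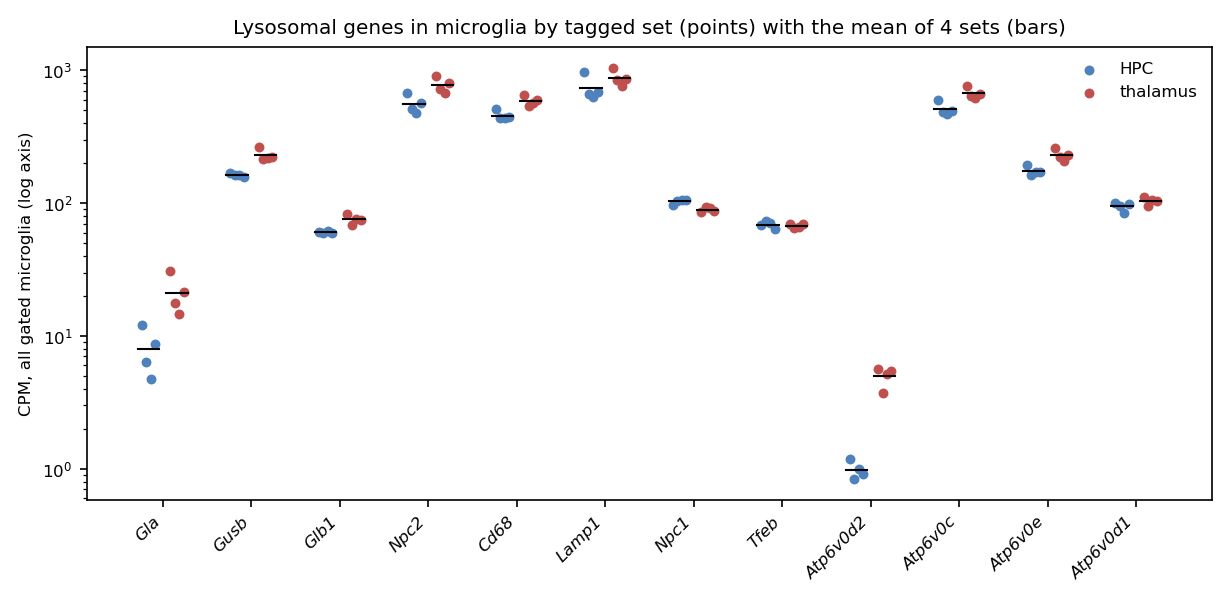
Levels of 12 lysosomal genes in the gated microglia of each tagged set, in CPM on a logarithmic axis, with HPC and thalamus sets as points (n = 4 each) and their mean as a bar. Atp6v0d2 and Gla were the furthest apart, at 0.837 to 1.17 against 3.72 to 5.68 and at 4.77 to 12.1 against 14.6 to 31.0, whereas the Tfeb points of the regions were mixed.

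How many members were called depended on single sets and on pairing. With the set number as a block, 21 members were higher and 1 lower (16.6% and 12.7% of all genes), and without HPC set 1 there were likewise 21 and 1 (13.5% and 9.17%). The added members were Hexa, Lipa, Gaa, Naglu, Neu1, Ppt1, Psap, Grn, Lamp1, Lamp2, Atp6v0d1, Atp6v1a and Atp6v1b2. With the block, the edgeR adjusted p-values were 0.0013 for Lamp1, 0.0162 for Atp6v0d1, 0.000169 for Hexa and 4.17e-05 for Grn. Without HPC set 2 only Atp6v0d2, Gusb and Glb1 remained higher and 0 were lower (4.63% and 1.29% of all genes). Members numbered 5 higher and 0 lower without HPC set 4 (5.5% and 1.91%) and likewise without thalamus set 4 (5.52% and 1.95%). Leaving out TMM factors took the higher part of all called genes from 65.0% to 44.7%, with 8 members higher and 1 lower as before. The share of all genes called in that fit is not given here.

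Since sums over all microglia pool their states, more cells of a state and more RNA per cell cannot be told apart in them. The thalamus sets held more disease-associated microglia (DAM, gated by Lpl, Cst7 and related markers), which were 38.8%, 18.6%, 20.2% and 26.4% of microglia in thalamus sets 1 to 4 and 6.72%, 2.00%, 1.65% and 3.19% in the HPC sets. The summed DAM markers, which here and below include Spp1 although the gate left it out, were at 4392 to 14414 CPM in the thalamus and 1196 to 1823 in the HPC. Summed monocyte markers also moved with region, at 42.9 to 118 against 20.8 to 42.6 with 0 of 7 at 0, and so did those of T and NK cells, at 41.2 to 48.3 against 21.7 to 25.0, and of cycling cells, at 16.4 to 72.9 against 5.73 to 9.62. Lower in the thalamus without overlap were the summed markers of astrocytes (218 to 269 against 313 to 374), neutrophils (434 to 448 against 481 to 503), dendritic cells (11.1 to 13.5 against 13.97 to 15.9) and erythroid cells (0.229 to 0.813 against 1.06 to 2.01). A list of genes induced by tissue dissociation was at 3989 to 5975 against 3661 to 4890, with overlap. Their part in the results was not tested.

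A further group that moved with region was microglia poor in the nuclear RNA Malat1, with fewer than 40 Malat1 UMIs per 10000. They were 16.8%, 5.37%, 6.38% and 7.69% of microglia in the thalamus sets and 2.36%, 0.571%, 0.207% and 0.339% in the HPC sets, and had medians of 2080.5 to 2381 UMIs per cell in the 5 sets with at least 20 such cells (HPC set 1 and all thalamus sets). In 11 of the 35 members every one of these sets lay above every set of all microglia, namely Hexa, Gusb, Gla, Naglu, Psap, Npc2, Cd68, Lamp1, Laptm4a, Atp6v0c and Atp6v0e. Cd68 was at 1294 CPM in HPC set 1 and at 1410 to 1664 in the thalamus sets, Npc2 at 1900 and 2105 to 2374, and Atp6v0c at 1672 and 1427 to 1664. In 7 members, Lgmn, Npc1, Scarb2, Tfeb, Atp6v1a, Atp6v1b2 and Atp6v1h, every one of these sets lay below. Lgmn was at 1459 to 1825 against 2129 to 2394 in all microglia, Atp6v1a at 44.7 to 67.8 against 82.4 to 123.4, and Tfeb at 12.7 to 29.8. These are descriptions with no test. The share of all genes above or below is not given here, so these counts cannot be read as particular to the members. Malat1-poor cells are also part of the sums of all microglia they are set against.

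When only the 18081 microglia with at least 40 Malat1 UMIs per 10000 were summed, 7 members were higher and 0 lower, against 6.71% and 3.24% of 12889 genes. Atp6v0d2 (2.37), Gla (1.31), Gusb (0.48), Glb1 (0.34) and Atp6v0e (0.34) were called, and so were Atp6v0c (0.35, edgeR adjusted p = 0.0498) and Cd68 (0.29, edgeR adjusted p = 0.0389). Npc2 (0.37, edgeR adjusted p = 0.0908) and Npc1 (-0.13, edgeR adjusted p = 0.0567) were not. The members' median was 0.20, and calls among all genes went from 67.4% to 55.0% higher without TMM factors. With the set number as a block 19 were higher and 1 lower (13.7% and 9.59% of all genes). Leaving out HPC set 1 gave 20 and 1 (11.6% and 7.39%), and leaving out HPC set 2 gave 2 higher, Atp6v0d2 and Gusb, and 0 lower (3.4% and 1.05%). The call of Gla was lost without HPC set 2, HPC set 4, thalamus set 1 or thalamus set 4, that of Atp6v0e also without HPC set 3 or thalamus set 2, and those of Cd68 and Atp6v0c without any single set but HPC set 1.

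It was then asked whether the regions differed within homeostatic microglia, the cells with high P2ry12, Tmem119 and related markers and few DAM markers (7122 in the HPC and 2802 in the thalamus). None of the 34 members tested was called in either direction by edgeR, nor by DESeq2. At an unadjusted p under 0.05, 3 members were lower by edgeR, namely Npc1, Atp6v1h and Tpp1, and 4 members passed by DESeq2. Few genes were called at all in these cells, 0.415% higher and 0.102% lower of 11794, and 1348 passed at an unadjusted p under 0.05. The members' median log2 fold change was -0.01. Summed DAM markers were at 1023 to 1115 CPM in thalamic and 755 to 879 in HPC homeostatic cells, and summed dissociation genes at 5067 to 6973 and 3819 to 4880, and their part was not tested.

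Genes that led in all microglia were close between the regions here. Cd68 had 442.9, 399.8, 395.4 and 389.3 CPM in the HPC and 383.0, 387.0, 370.9 and 404.4 in the thalamus, with a log2 fold change of -0.08 (SE 0.07). Gla had 5.99, 4.77, 4.19 and 6.44 in the HPC and 9.64, 6.28, 4.0 and 6.52 in the thalamus, with a log2 fold change of 0.25 (SE 0.26). For Cd68, 3 thalamus sets were below every HPC set, while thalamus set 4 lay within the HPC range. For Gla, 2 thalamus sets were above every HPC set and 1 was below. Atp6v0c was at -0.07, Npc2 at -0.03, Lamp1 at -0.05, Gusb at 0.12 (edgeR adjusted p = 0.491, SE 0.06) and Glb1 at 0.12 (edgeR adjusted p = 0.51, SE 0.06). Atp6v0d2 was not tested, with 32 UMIs over all sets and 0 to 1.33 CPM.

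Npc1 was the member nearest to a call in homeostatic microglia, at 98.3, 103.9, 108.8 and 108.4 in the HPC and 90.7, 93.8, 91.8 and 86.2 in the thalamus. Every thalamus set was below every HPC set. The log2 fold change of -0.21 (SE 0.05) had an edgeR adjusted p of 0.145, and of 0.0477 with the set number as a block, where it was the only member called (2.73% of all genes were higher and 1.75% lower). Lgmn showed the reverse order, with 2267, 2392, 2401 and 2409 in the HPC and 2582, 2574, 2561 and 2542 in the thalamus, and was not called. In all, 3 members were above (Lgmn, Gusb and Glb1; 3.8% of all genes) and 3 below (Npc1, Atp6v1h and Tpp1; 3.56%) without overlap.

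In DAM, 35 members were tested between 395 HPC and 2235 thalamic cells, where HPC set 3 held 32 cells. Of these, 2 were higher in the thalamus and 0 lower, against 1.03% and 0.34% of 9705 genes. Hexa had 663.9, 598.2, 518.0 and 548.3 CPM in the HPC and 851.1, 786.2, 910.3 and 769.5 in the thalamus, with a log2 fold change of 0.54 (edgeR adjusted p = 0.0124, SE 0.11). Grn had 1065, 777.1, 867.0 and 818.6 in the HPC and 1476, 1130, 1156 and 1222 in the thalamus, with a log2 fold change of 0.54 (edgeR adjusted p = 0.0306, SE 0.12). For both genes the thalamus sets were all above the HPC sets. Hexa was called in 15 of 16 alternatives and Grn in 10, and neither was called without HPC set 4 (Hexa adjusted p = 0.0705, Grn up to 0.135 over its alternatives).

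Npc2 had 1003, 763.1, 801.6 and 890.0 in the HPC and 1154, 1108, 1087 and 1119 in the thalamus, again without overlap. It was not called (0.41, edgeR adjusted p = 0.0641), but was with the set number as a block (edgeR adjusted p = 0.00964), where 3 members were higher and 0 lower (1.72% and 0.762% of all genes). Without HPC set 1, 4 members were called, and 1 each without HPC set 2, HPC set 3, thalamus set 1 or thalamus set 4. Over the fits that each left out 1 set, 74 to 157 genes were called in all. The share of all genes in each of these fits is not given here, so these member counts cannot be read as a result about the members. Of the members that led in all microglia, none of the following was called, with log2 fold changes of 0.09 for Cd68, -0.06 for Gla, 0.38 for Gusb (edgeR adjusted p = 0.217) and 0.48 for Atp6v0d2 (edgeR adjusted p = 0.684). The median of the members was 0.06, and calls among all genes went from 75.2% to 60.7% higher without TMM factors. The gated DAM themselves differed in their markers, with summed DAM markers of 11964 to 25410 CPM in the thalamus and 7531 to 8649 in the HPC, and 28.8% of DAM in thalamus set 1 were Malat1-poor. The part of the former in these results was not tested, while with Malat1-poor cells left out the same 2 members, Hexa and Grn, were called.

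**Figure D2:**
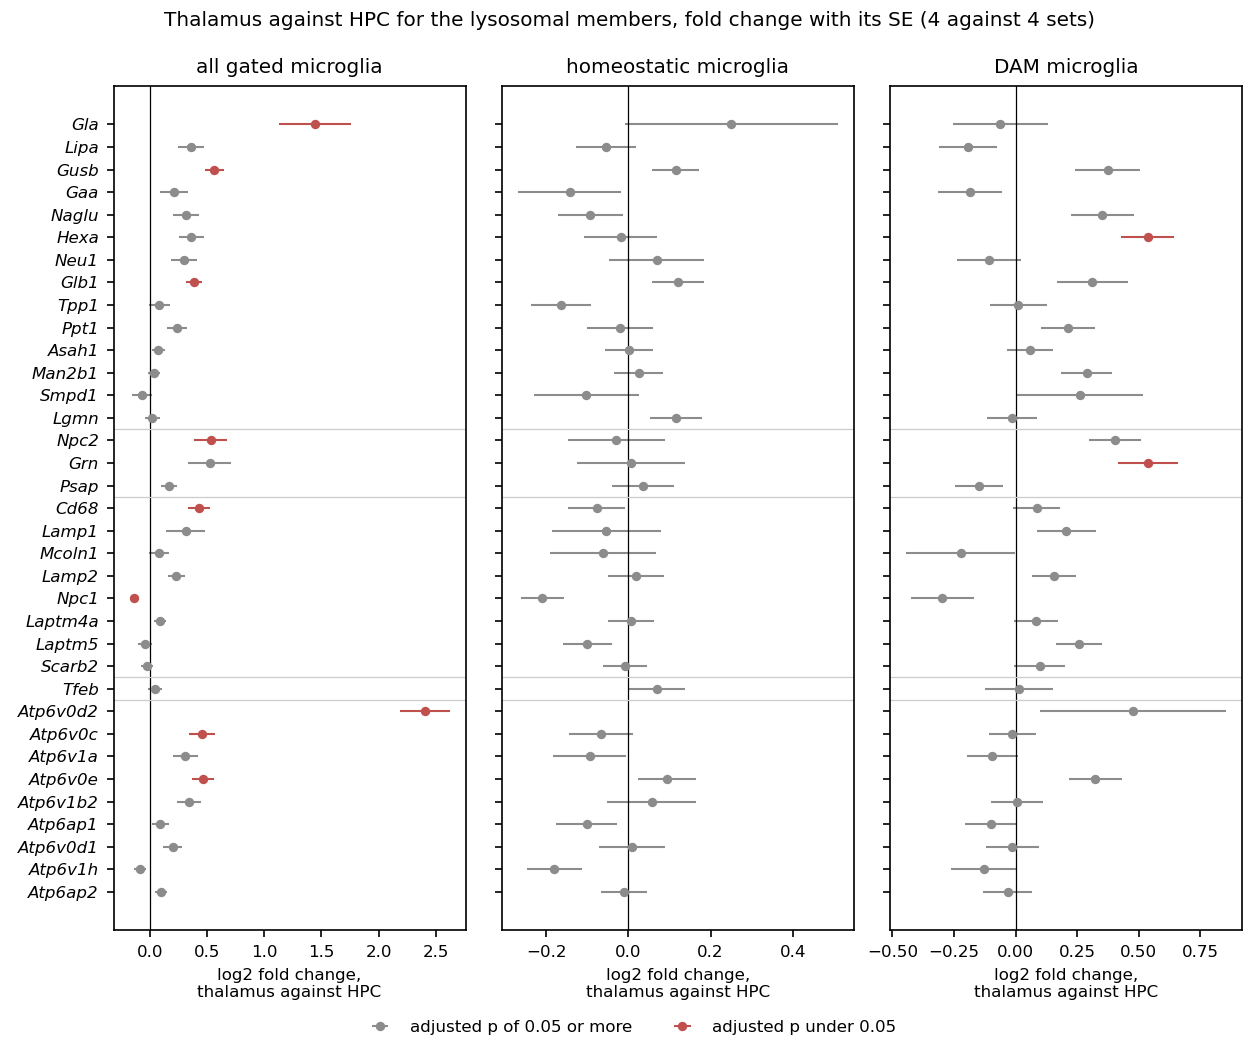
Log2 fold change of each member between thalamus and HPC (positive means higher in the thalamus), with its SE as a bar, in all microglia, homeostatic microglia and DAM. The x axes of the 3 panels have different scales. Members called at an edgeR adjusted p under 0.05 are coloured, 9 in all microglia, 0 in homeostatic microglia and 2 in DAM.

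More members were called between states than between regions. DAM were set against homeostatic microglia within each set, the set being a block (n = 8 pairs). Of 34 members tested, 28 were higher in DAM and 1, Lgmn, was lower, against 26.1% and 22.5% of 11023 genes. The median log2 fold change was 0.65 over the members and 0.00 over all genes. Of the 14 hydrolases 11 were higher, of the 3 soluble proteins 3, of the 8 membrane proteins 6, and of the 8 pump genes tested 8. Tfeb was not called (0.11, edgeR adjusted p = 0.26). The states were gated by other genes, and a cell's state is a range of marker levels rather than a type.

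The hydrolase with the largest change was Gla, at 4.0 to 9.64 CPM in homeostatic sets (median 6.13) and 16.4 to 56.6 in DAM sets (median 46.3). The log2 fold change was 3.14 (edgeR adjusted p = 6.04e-17, SE 0.14), an 8.80-fold difference. Every DAM set was above every homeostatic set. Lipa, which releases cholesterol and fatty acids from lipids taken up, was at 68.1 to 82.4 (median 75.8) and 140 to 251 (median 161), with a log2 fold change of 1.36 (edgeR adjusted p = 1.21e-15, SE 0.07). Hexa was at 448 to 537 (median 464) and 518 to 910 (median 717), which overlapped, with a log2 fold change of 0.79. Gaa, the glycogen-degrading acid alpha-glucosidase, was at 30.7 to 45.4 (median 37.3) and 54.3 to 92.7 (median 63.5), a log2 fold change of 1.00. Naglu, which acts on heparan sulfate, was at 50.5 to 64.1 (median 61.2) and 81.1 to 119.7 (median 89.0), a log2 fold change of 0.89. Neu1, a sialidase, was at 41.0 to 56.1 (median 45.1) and 59.6 to 92.7 (median 71.3), a log2 fold change of 0.78. For these 3 genes the states did not overlap. Gusb (1.02), Glb1 (0.76), the peptidase Tpp1 (0.71), the thioesterase Ppt1 (0.57) and the acid ceramidase Asah1 (0.23) rose too. Man2b1, the lysosomal alpha-mannosidase (0.02, edgeR adjusted p = 0.801), and Smpd1 (-0.03) were not called.

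Lgmn was the exception among the hydrolases. It was at 2267 to 2582 CPM in homeostatic sets (median 2475) and 1576 to 1985 in DAM sets (median 1786), without overlap, and fell by 0.24 on the log2 scale (edgeR adjusted p = 0.00165, SE 0.06).

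Among the soluble proteins, Npc2 was at 429 to 604 (median 501) in homeostatic and 763 to 1154 (median 1045) in DAM sets, with a log2 fold change of 1.21 (edgeR adjusted p = 1.06e-13, SE 0.07). Grn was at 545 to 754 (median 581) and 777 to 1476 (median 1097), with a log2 fold change of 1.00, while for Psap, the saposin precursor that helps enzymes reach sphingolipids, it was 0.58. Every DAM set was above every homeostatic set for Npc2 and Grn.

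Cd68 was the membrane protein with the largest change, at 371 to 443 (median 392) and 772 to 987 (median 859), with a log2 fold change of 1.34 (edgeR adjusted p = 9.43e-17, SE 0.06), again without overlap. Lamp1 (0.90), the calcium channel Mcoln1 (0.56), Lamp2 (0.55), Npc1 (0.29) and Laptm4a (0.23) were higher as well. Scarb2, the receptor that sorts glucocerebrosidase to lysosomes (-0.07), and Laptm5 (-0.01), a membrane protein of blood cells, were not called.

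All 8 pump genes tested rose, of which Atp6v1h and Atp6ap2 were not called without TMM factors. Atp6v0c was at 401 to 500 (median 438) in homeostatic and 921 to 1099 (median 1025) in DAM sets, with a log2 fold change of 1.42 (edgeR adjusted p = 7.09e-18, SE 0.06), a 2.68-fold difference without overlap. The V1 catalytic subunit Atp6v1a was at 79.8 to 102.0 (median 87.6) and 137 to 180 (median 154), a log2 fold change of 1.01, and its partner Atp6v1b2 at 90.2 to 118 (median 96.4) and 138 to 196 (median 163), one of 0.89. Neither overlapped between the states. Also higher were Atp6v0e (0.97), Atp6ap1 (0.52), Atp6v0d1 (0.50), Atp6v1h (0.37) and Atp6ap2 (0.35). Atp6v0d2 did not pass the filter on low counts in this fit. It had 0 to 1.33 CPM in homeostatic sets (32 UMIs) and 2.80 to 21.8 in DAM sets (185 UMIs), with every DAM set above every homeostatic set. This order rests on very few UMIs in the HPC, where DAM were 395 cells in all and sets 2 and 4 were at 2.80 and 5.10.

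With TMM factors left out, the median log2 fold change of all genes was -0.24. Of the called genes (not of the genes tested), the higher part went from 53.7% to 26.1%. In that fit 23 members were higher and 4 (Lgmn, Laptm5, Scarb2 and Man2b1) lower in DAM. Its share of all genes called is not given here, so these counts cannot be read as a result about the members. The calls of Asah1, Npc1, Laptm4a, Atp6v1h and Atp6ap2 were lost without TMM factors and in no other alternative. With Malat1-poor cells left out of both states, the 28 higher members and Lgmn were called as before. In DAM as gated, lysosomal members made up 1.33% to 1.46% of all UMIs in the HPC sets and 1.45% to 1.51% in the thalamus sets, against 1.11% to 1.20% in homeostatic sets.

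Members with and without a CACGTG core in the RefSeq promoter both rose between the states. Of the 10 with it, 9 were higher and 1, Lgmn, lower, with a median of 0.90, and of the 20 without it that were tested 15 were higher and 0 lower, with a median of 0.57. Lgmn counts as a holder although its window at the annotated start lacks the core. This is a description without a test, and the largest changes fell in both groups, with Gla among the holders and Atp6v0c, Lipa and Cd68 among the others.

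It was next asked whether the change between states differed by region, with an interaction term in 1 fit that shares its sets with the comparisons above. The 34 members of the comparison of states are counted here, since Atp6v0d2 passed the low-count filter of this fit through DAM and is given by its levels alone. Within the thalamus, 29 members were higher in DAM and 1 lower (24.5% and 19% of all genes), and within the HPC 24 were higher and 2, Lgmn and Laptm5, lower (15.5% and 12.6%).

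The change itself was larger in the thalamus for 4 of 34 members and smaller for 0, against 0.619% and 0.189% of 11623 genes. Grn rose by 1.28 in the thalamus and 0.67 in the HPC, a difference of 0.61 (edgeR adjusted p = 0.000191, SE 0.09). Hexa rose by 1.06 and 0.43, a difference of 0.63 (edgeR adjusted p = 0.000808, SE 0.11), and Npc2 by 1.44 and 0.92, a difference of 0.52 (edgeR adjusted p = 0.00252, SE 0.10). All 3 were thus higher in DAM of both regions. Laptm5 was higher in thalamic DAM (0.18) and lower in HPC DAM (-0.23), a difference of 0.41 (edgeR adjusted p = 0.0366, SE 0.10). Its call was kept in 3 of 11 alternatives, and was lost without HPC set 2, 3 or 4 or thalamus set 2, 3 or 4. With Malat1-poor cells left out the calls of Npc2 (edgeR adjusted p = 0.154) and Laptm5 (edgeR adjusted p = 0.282) were lost while Hexa and Grn held. For Gla, which rose by 3.05 in the thalamus and 3.22 in the HPC, no difference was called. Without TMM factors, the higher part of all called genes went from 76.6% to 43.9%, and 3 members were called. The share of all genes called in that fit is not given here.

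**Figure D3:**
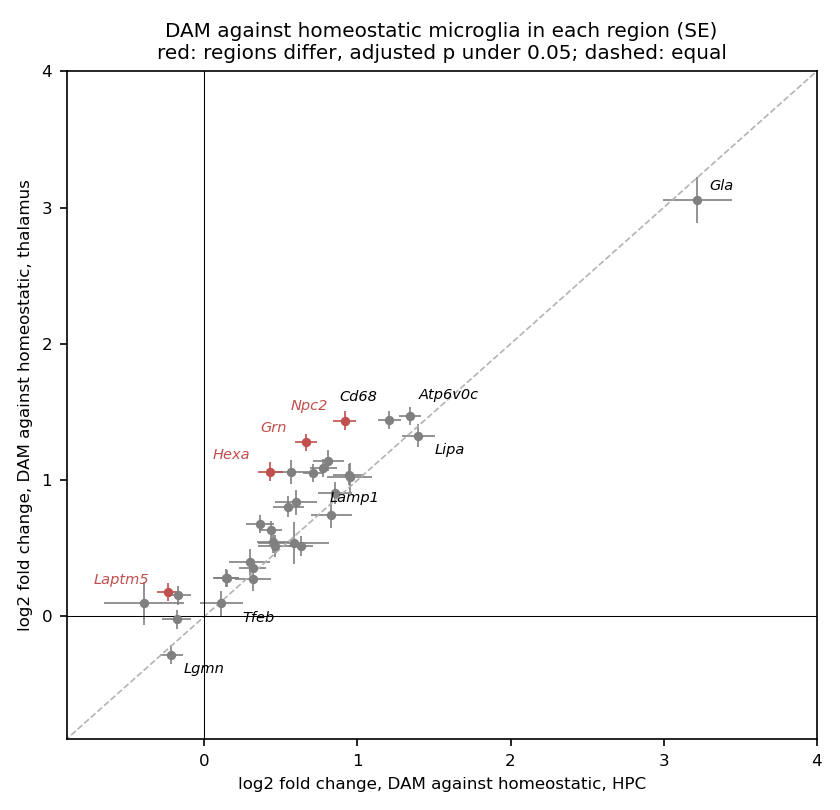
Log2 fold change of each member between DAM and homeostatic microglia in the HPC (x axis) and the thalamus (y axis), with SE bars and a dashed line where both are equal. Hexa, Grn, Npc2 and Laptm5, in red, lie above the line with a difference of 0.41 to 0.63 at an edgeR adjusted p under 0.05, and Gla lies at the upper right. Atp6v0d2 is left out.

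Finally, other CD45+ classes were set against all microglia of the same sets, with the set as a block, in classes with at least 20 cells per set. T and NK cells (2944 cells, 8 sets) lack most of the phagocytic machinery, and 32 of 34 members were lower and 1 higher in them, against 44.2% and 33.7% of all genes. Lgmn (-5.48), Cd68 (-4.78) and Grn (-4.0) were far lower. Cd68 was at 12.1 to 28.6 CPM in these cells, a level that free RNA of microglia in the droplets could also give, which was not tested. Atp6v0e was the member that was higher, at 180 to 328 (log2 fold change 0.38).

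In neutrophils (878 cells, of which 6 sets reached 20), 34 members were tested, and 7 were higher and 19 lower, against 21.6% and 40.9% of all genes. The higher members were Gla (2.25), Tfeb (1.41) and 5 pump subunits, Atp6v0e (1.44), Atp6v0c (1.31), Atp6v1a (1.13), Atp6v1b2 (1.01) and Atp6v0d1 (0.79). Tfeb was at 134 to 216 CPM (median 163) and Atp6v0c at 870 to 2061 (median 1589), both above every microglial set. Lgmn (-4.35), Grn (-2.47) and Cd68 (-2.07) were lower. All 10 of these calls held in each alternative run for neutrophils.

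Monocytes reached 20 cells in 3 sets (HPC set 1 and thalamus sets 1 and 2; 186 cells in all 8 sets). Of 35 members 5 were higher, namely Gla (1.07), Npc2 (1.00), Atp6v0e (0.96), Atp6v0c (0.85) and Psap (0.82), and 16 lower, against 19.5% and 22% of all genes. Npc2 was at 1159 CPM in HPC set 1 and at 1361 and 1377 in the thalamus sets, and Naglu (-2.73) and Lgmn (-2.35) were the furthest below microglia. The call of Gla was lost without thalamus set 1 and with no block. Leaving out TMM factors took calls among all genes from 47.0% to 34.3% higher. Border macrophages, gated by Mrc1, Pf4 and related markers, reached 20 cells in 4 sets (129 cells in all). Psap was higher (0.50, edgeR adjusted p = 0.0226) and Naglu (-1.20), Lgmn (-0.97), Scarb2 (-0.69), Laptm5 (-0.68) and Man2b1 (-0.58) lower of 34 members, against 7.24% and 8.7% of all genes. The calls of Psap and Scarb2 were lost without HPC set 1 or thalamus set 1 and with no block, and those of Psap, Man2b1 and Naglu without thalamus set 4. Atp6v0d2 had 1 UMI in border macrophages, 4 in monocytes, 7 in neutrophils and 10 in T and NK cells, classes that differ in depth. By set it was at 0 to 8.197 CPM in border macrophages, 0 to 9.18 in monocytes and 0 to 6.07 in neutrophils. The median was 0 in each. T and NK cells were at 0 to 3.565 (median 0.618), and all microglia at 0.837 to 5.68. On so few UMIs, border macrophages, monocytes and neutrophils cannot be ranked against microglia for this gene.

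**Figure D4:**
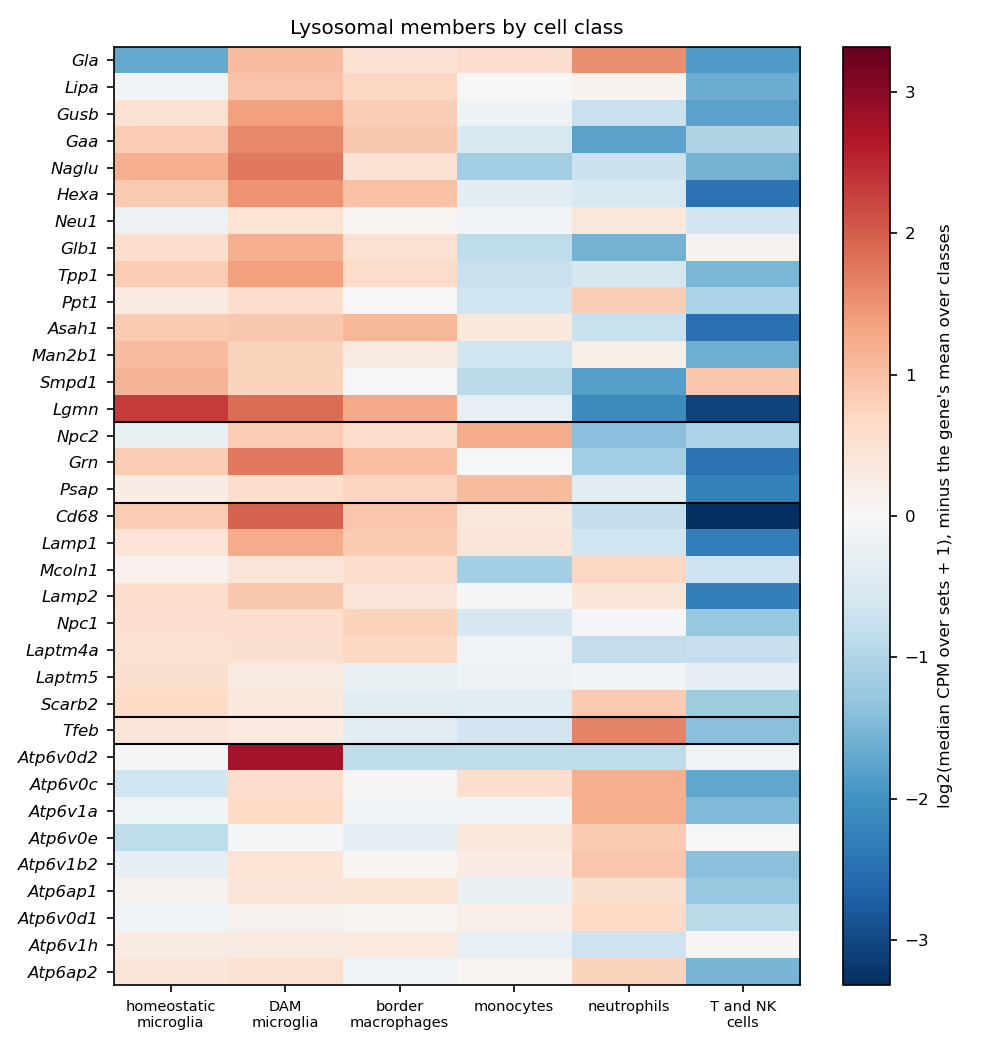
Heatmap of the 35 members (rows) over 6 cell classes (columns), coloured by log2(median CPM over sets + 1) minus the gene's mean over the classes, so that colours compare classes within a gene only. T and NK cells are low for most members, DAM are high for Cd68 and Atp6v0d2, and neutrophils are high for Tfeb (median 163 CPM), several pump subunits and Gla (median 65.9 against 46.3 in DAM).

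Lysosomal genes that are not members were counted in 4 further lists, 22 hydrolases, 18 membrane proteins, 13 pump genes and 14 regulators. In all microglia, 3 hydrolases were higher and 2 lower in the thalamus (the ganglioside activator Gm2a at 0.45 and the sulfatase Sgsh at -0.68 being the furthest), 3 membrane proteins were higher and 3 lower (the tetraspanin Cd63 at 0.84, Sort1 at -0.31), 5 of 11 pump genes tested were higher and 1 lower (Atp6v1f at 0.42, Atp6v0a2 at -0.41), and 4 regulators were higher and 1 lower (Lamtor5 at 0.28, Rptor at -0.18), against 8.99% higher and 4.85% lower of all genes. In homeostatic microglia 0 genes of any of these lists were called by edgeR (0.415% and 0.102% of all genes), and in DAM 1, the sulfatase Arsb (0.68), against 1.03% and 0.34%. Between DAM and homeostatic microglia, 13 of 21 hydrolases were higher and 6 lower (Galns at 1.31, Sgsh at -1.29), 11 of 17 membrane proteins higher and 4 lower (Cd63 at 2.08, Sort1 at -0.71), 8 of 11 pump genes higher and 1 lower (Atp6v1f at 1.00, Atp6v0a2 at -1.22), and 9 of 13 regulators higher and 2 lower, against 26.1% and 22.5% of all genes. Of the regulators, Mitf, a factor of the Tfeb family, rose most (1.19), and Tfe3 of the same family was among the 2 lower genes.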

How the data were processed

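The deposited values were raw UMI counts per gene and cell with no normalization, which the authors made with Cell Ranger 7.1.0 on mm10 per the file headers (the study's methods name an earlier version). Intron counting was not stated. The 12 multiplexing oligos were left out. Cells with 200 to 7500 genes and at most 2% mitochondrial counts were kept. Barcodes shared between matrices numbered 0 within a region and 65 between regions.

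Microglia had at least 80 of 10000 UMIs from microglia markers, at least 5 such markers and at most 2 markers of another class. Other classes were cells outside the microglia gate with at least 3 own markers, at most 2 markers of any further class and under 40 microglial UMIs per 10000. Border macrophages were held to under 30 UMIs per 10000 from homeostatic markers in place of the last limit. DAM had at least 30 UMIs per 10000 and 3 markers of the DAM list without Spp1. Homeostatic microglia had at least 40 from homeostatic and under 15 from these DAM markers. Both states were limited to cells with under 10 UMIs per 10000 from interferon markers and at most 1 cycling marker. No cell was removed as a doublet beyond these gates, and an alternative left out the deepest 5% of cells. Of the marker genes, 1 is not reported here.

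Counts were summed per set and class (at least 20 cells) and fitted with edgeR 4.0.16 in R 4.3.3 by its quasi-likelihood test after TMM scaling and filterByExpr. P-values were adjusted by Benjamini-Hochberg over every gene in the fit, and 0.05 was the threshold. Alternatives were DESeq2 1.42.0, the set number as a block, a 5% mitochondrial limit, no TMM factors, no low-count filter, a stricter gate (120 UMIs per 10000 and 8 markers), no deep cells, and leaving out each set. The fits were tested on simulated data. Same-numbered sets of the regions deviated together, with correlations of 0.5025, 0.1376, 0.4763 and 0.173, so the numbers were taken to pair the sets, though 1 pair of unlike numbers (thalamus set 3 with HPC set 2) reached 0.1633. The region fits have no block, since the study's methods name none, and blocked values stand beside them. Where sets are not separate mice, p-values measure technical spread only.

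The members and all lists were chosen with earlier results of these data known. Values in every set were given for members called between regions in all microglia, for Cd68, Lamp1, Tfeb, Atp6v0d1 and Atp6v0d2, and levels for up to 8 further members called between states, by size of change. Of the further lists, the called gene furthest in each direction was named. Tfe3 and the pump genes Atp6v1d, Atp6v1e1 and Atp6v1g1 were named after their values were seen. Gene positions came from GENCODE M21 (GRCm38), promoters from RefSeq (GRCm38.p6).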

Additional observations from a re-analysis of the deposited data

Results flagged for a closer look

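In all microglia, 40 groups of 4 sets (20 members in 2 regions) were searched for a set far from the others by Dixon's test at its 95% level, and 6 had one. Chance alone gives such a set in about 1 in 20 groups. In 5 of them the set was HPC set 1. It had 507.6 CPM of Cd68 against 436.6 to 441.4 in the other HPC sets, 971.3 of Lamp1 against 626.5 to 682.7, 577.7 of Hexa against 479.1 to 493.5, 120.3 of Atp6v1b2 against 94.5 to 97.4, and 55.9 of Neu1 against 44.6 to 46.1. The sixth was thalamus set 1, with 263.1 of Gusb against 213.7 to 221.8 in the other thalamus sets. HPC set 1 also held more DAM (6.72% of microglia against 1.65% to 3.19%), whose part in these values was not tested.

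The difference between the regions in the DAM against homeostatic contrast, tested by an interaction term, was called for Hexa (0.63), Grn (0.61), Npc2 (0.52) and Laptm5 (0.41).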

How the results depend on the processing

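Of the 381 summary values (counts of called members or genes under each alternative), 302 stayed within 1.5 times the reported count and 79 moved further. In all microglia (8 members higher, 1 lower, 1796 genes), DESeq2 gave 13 higher and 0 lower, and a mitochondrial limit of 5% 13 higher. No member was lower without the low-count filter or with the stricter gate (0 each), and leaving out single sets gave 3 to 21 higher, 0 to 1 lower and 770 to 2948 genes. The log2 fold change of Tfeb went from 0.04 to -0.024 without TMM factors. In microglia with Malat1, 1 member was lower without TMM factors, and leaving out sets gave 2 to 20 higher, 0 to 1 lower and 579 to 2461 genes. In homeostatic microglia (61 genes), DESeq2 called 117 genes, no filter 139, and leaving out sets 22 to 270. In DAM (2 higher, 133 genes), the 5% limit left 1, no filter gave 4 members and 340 genes, and leaving out sets 0 to 4 members and 74 to 157 genes. Between states, 4 members were lower without TMM factors. For the difference of the state contrast between regions, 2 members and 58 genes were called with Malat1-poor cells left out, an alternative chosen after seeing the data, and 165 genes without the filter. Border macrophages had 0 members higher without the filter, 2 lower by DESeq2, and 0 to 2 higher and 3 to 6 lower when sets were left out. The cause of these moves was not tested. Where a count of members stands without a count of genes, as for DESeq2 and the 5% limit in all microglia, the share of all genes is not given here. Such a count cannot be read as a result about the members.

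With the set number as replicate block, 21 members and 3798 genes were called in all microglia (1 member lower as before), 19 higher, 1 lower and 2998 genes with Malat1, 1 member lower and 528 genes in homeostatic microglia, and 3 members and 241 genes in DAM. Without the block, border macrophages had 0 members higher and neutrophils 11, and the calls of Psap and Scarb2 in border macrophages, Gla and Asah1 in monocytes and Lamp2 in neutrophils were lost. The shares of all genes without the block are not given here. In the comparison of states and in T and NK cells no call was lost without it.

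Of the fold changes of named members, 401 of 406 between states and 147 of 180 between regions in all microglia kept direction and call. The count between states leaves out Laptm5, Scarb2 and Man2b1, which were not called in the main fit but were called lower without TMM factors. Depth limits Atp6v0d2 most, at 260 microglial UMIs, and classes of few cells.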
